A study of Mus musculus with 8 samples.

Results

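NADPH is the reducing agent that cells spend on building fatty acids and cholesterol and on recycling glutathione and thioredoxin. In the cytosol it is made mainly by the oxidative branch of the pentose phosphate pathway, by malic enzyme and by cytosolic isocitrate dehydrogenase. The non-oxidative branch of the pathway interconverts sugar phosphates and returns surplus pentoses to glycolysis. In the peripheral nerve, myelinating Schwann cells make large amounts of lipid for the myelin sheath.

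The 9 genes described here encode the cytosolic enzymes of these routes and were chosen by symbol from the 53090 genes in each table. *G6pdx*, *Pgls* and *Pgd* form the oxidative branch, *Rpia*, *Rpe*, *Tkt* and *Taldo1* the non-oxidative branch, and *Me1* and *Idh1* make NADPH outside the pathway. All 9 passed the filter on low counts, which left 17090 genes for testing.

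Total RNA was sequenced from 4 control and 4 *Nae1* cKO sciatic nerves at postnatal day 7, to compare the transcriptomes of nerves with and without neddylation in Schwann cells. *Nae1* encodes a subunit of the enzyme that activates NEDD8 for neddylation. *Nae1* cKO mice carried Cre and were *Nae1* f/f, with both alleles floxed, and the controls, labelled WT, were described in the methods of the study as littermates that lacked Cre and were *Nae1* f/+ or f/f, so the control group is not free of floxed *Nae1*. Cre was directed to Schwann cells, so other cells of the nerve kept *Nae1*. In a bulk nerve sample, fewer cells of a type and less RNA per cell cannot be told apart. The labels do not state whether each library came from a different mouse beyond giving 4 per genotype, and they do not explain the letters K and L in the names of the nerves (K1, L3, L4 and L9 for control, K2, L1, L5 and L8 for *Nae1* cKO). Depth was 13508752 to 14766770 expected counts in control and 12962798 to 13855366 in *Nae1* cKO nerves. *Nae1* itself fell by 0.68 on the log2 scale (SE 0.097; quasi-likelihood test of edgeR, adjusted p = 2.8e-04), in counts that include exons outside the deleted one and RNA of other cell types. The mRNAs of myelin proteins were present in all nerves, as a sciatic nerve label requires, and all 8 of those listed were lower in *Nae1* cKO nerves.

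Of the 9 enzymes, 4 rose in *Nae1* cKO nerves (*Me1*, *Taldo1*, *G6pdx* and *Pgd*), none fell and 5 did not pass the test (edgeR, adjusted p under 0.05 over all tested genes). Over all tested genes, 26.4% passed, 14.1% higher and 12.3% lower. *Me1* and *Taldo1* changed more than 2-fold, as did 4.25% of all tested genes in the same direction. The median log2 fold change of the 9 was −0.09, and that of all tested genes was 0.01. The groups did not overlap in CPM for 5 of the 9, the 4 that rose and *Tkt*, as for 28.6% of all tested genes. CPM stands here for counts scaled by the TMM-corrected size of each library.

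**Figure D1:**
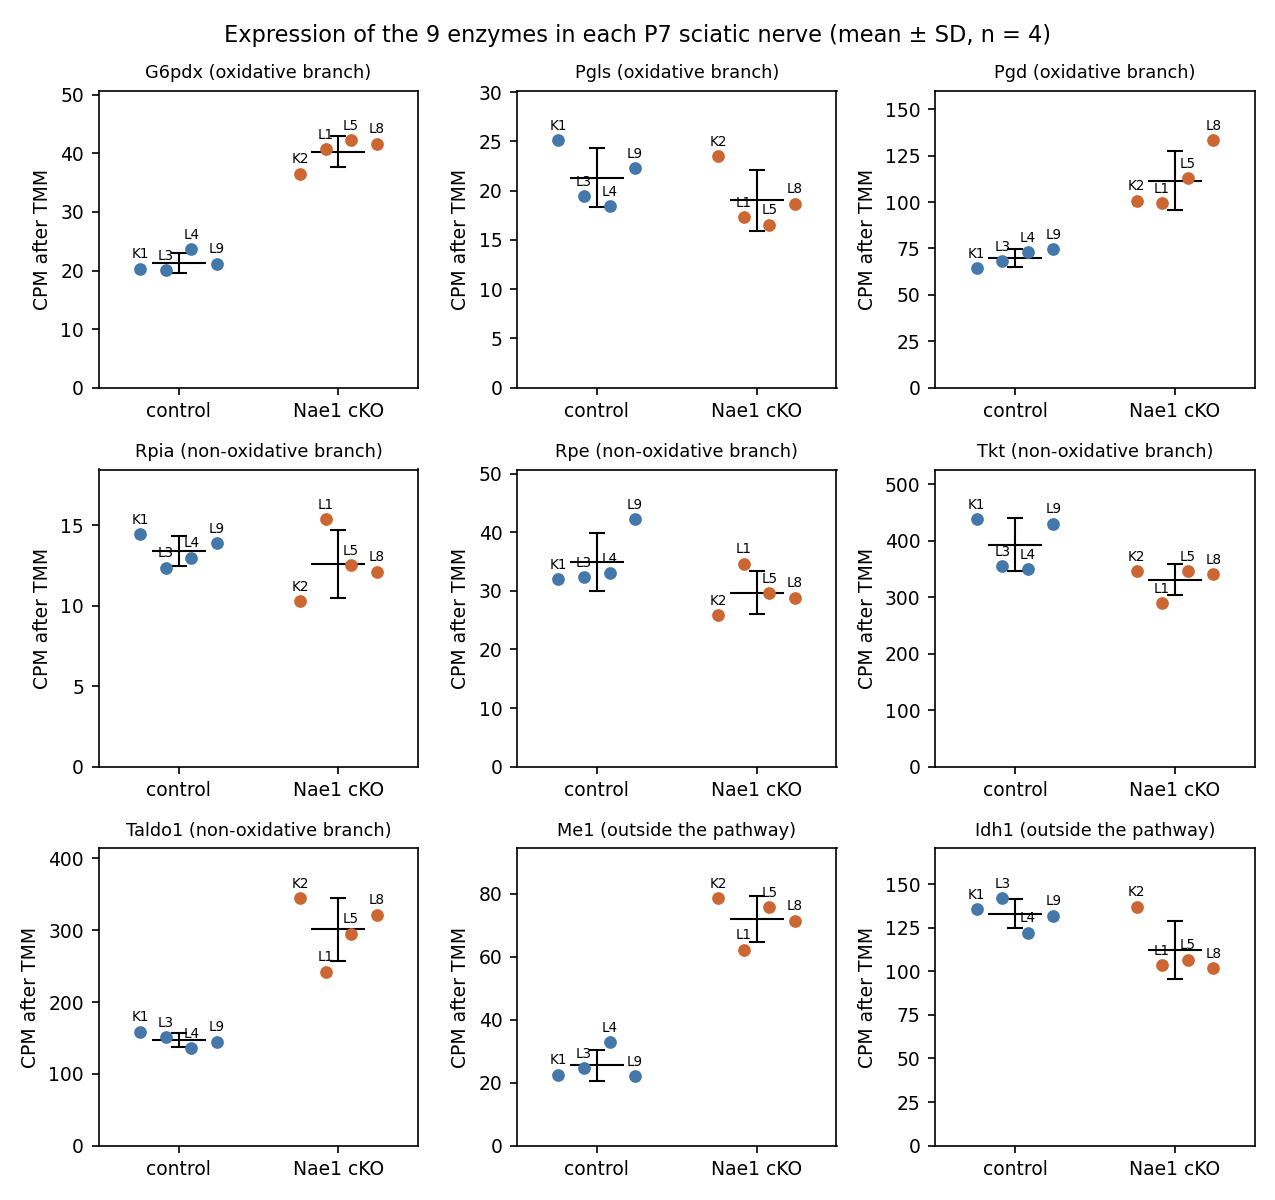
CPM after TMM scaling (vertical axes, starting at 0) of the 9 enzymes in each P7 sciatic nerve, with the nerve's name beside its point, control nerves in blue and *Nae1* cKO nerves in orange, and the mean ± SD of 4 nerves in black. All *Nae1* cKO points lie above all control points for *G6pdx*, *Pgd*, *Taldo1* and *Me1*, and below them for *Tkt*.

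*G6pdx* encodes glucose-6-phosphate dehydrogenase, the entry step of the oxidative branch and the one that commits glucose 6-phosphate to it. Its level was 20.3, 20.1, 23.7 and 21.1 CPM in control nerves K1, L3, L4 and L9. In *Nae1* cKO nerves K2, L1, L5 and L8 it was 36.6, 40.8, 42.3 and 41.7 CPM. The lowest *Nae1* cKO nerve thus lay well above the highest control nerve. The means were 21.3 ± 1.65 and 40.3 ± 2.58 CPM (SD, n = 4 each). This was a log2 fold change of 0.92 (SE 0.092, 95% interval 0.72 to 1.12, edgeR adjusted p = 1.84e-05) or 1.89-fold. *G6pdx* (ENSMUSG00000031400.10) lies on the minus strand of chromosome X of GRCm38, from 74409483 to 74429194, and overlaps *Ikbkg*, which is read from the other strand and encodes a subunit of the IκB kinase complex. Of the annotated exonic bases of *G6pdx*, 13.6% lie in exons of *Ikbkg* too. *Ikbkg* went from 52.3 ± 1.77 to 104 ± 19.0 CPM (SD over 4 nerves), which is 0.99 on the log2 scale (edgeR adjusted p = 5.11e-05). The libraries were stranded, but the strand setting of the counting is not given in the sources used here, and the share of *G6pdx* reads that could stem from *Ikbkg* was not tested. The expected counts of *G6pdx* were fractional in 7 of 8 libraries, as RSEM gives them where reads also match other sequences.

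*Pgls* (ENSMUSG00000031807.10, chr8:71592176-71601092, plus strand), which encodes the lactonase of the next step, did not follow. It was at 25.1, 19.4, 18.4 and 22.2 CPM in control nerves K1, L3, L4 and L9, and at 23.5, 17.3, 16.5 and 18.7 CPM in *Nae1* cKO nerves K2, L1, L5 and L8. The groups overlapped, with the K nerve the highest in each. The log2 difference was −0.17 (95% interval −0.46 to 0.13, edgeR adjusted p = 0.416), so a rise as large as that of *G6pdx* lies outside the interval. *Pgls* shares 20.6% of its annotated exonic bases with *Fam129c* on the same strand, which was at 1.57 ± 0.42 CPM in control nerves.

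*Pgd* (ENSMUSG00000028961.15, chr4:149149991-149166771, minus strand) encodes 6-phosphogluconate dehydrogenase, the step of the oxidative branch that makes the second NADPH and releases carbon dioxide. It was at 64.3, 68.0, 72.9 and 74.5 CPM in control nerves K1, L3, L4 and L9. In *Nae1* cKO nerves K2, L1, L5 and L8 it was at 100.7, 99.3, 113 and 133 CPM. Every *Nae1* cKO nerve was above every control nerve, with L8 the highest. The means were 69.9 ± 4.65 and 112 ± 15.8 CPM (SD over 4 nerves). The log2 fold change was 0.67 (SE 0.1002, 95% interval 0.46 to 0.89, edgeR adjusted p = 3.61e-04) or 1.60-fold. Both dehydrogenases of the oxidative branch thus rose while the lactonase between them did not pass.

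In the non-oxidative branch only *Taldo1* passed the test. It (ENSMUSG00000025503.5) lies at chr7:141392199-141402968 on the plus strand and encodes transaldolase, which moves a 3-carbon unit between sugar phosphates. Control nerves K1, L3, L4 and L9 held 159, 151, 136 and 145 CPM, and *Nae1* cKO nerves K2, L1, L5 and L8 held 345, 242, 295 and 322 CPM. The groups were far apart, although the *Nae1* cKO nerves spread more widely. The means were 147 ± 9.62 and 301 ± 44.1 CPM (SD over 4 nerves). The log2 fold change was 1.03 (SE 0.105, 95% interval 0.80 to 1.26, edgeR adjusted p = 2.3e-05) or 2.04-fold. Without nerve K2, the highest of its group, the log2 fold change was 0.95 and no longer over 2-fold.

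*Tkt* (ENSMUSG00000021957.7, chr14:30548359-30574720, plus strand) encodes transketolase, the partner of transaldolase, and moves a 2-carbon unit between the same kinds of sugar. It had the most counts of the 9 enzymes in control nerves, with 438, 354, 350 and 430 CPM in K1, L3, L4 and L9. In *Nae1* cKO nerves K2, L1, L5 and L8 it was at 345, 289, 346 and 341 CPM. The groups did not overlap, but the gap between them, from 346 to 350 CPM, was narrow beside the spread within control nerves. The log2 difference of −0.25 (SE 0.099, 95% interval −0.47 to −0.04) did not pass after adjustment (edgeR adjusted p = 0.0834). On the deposited TPM the groups overlapped, with 126 ± 13.7 in control and 124 ± 27.1 in *Nae1* cKO nerves (SD, n = 4).

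The other members of the branch, *Rpia* (ENSMUSG00000053604.5, chr6:70765720-70792232, minus strand) and *Rpe* (ENSMUSG00000026005.15, chr1:66700831-66719805, plus strand), convert ribulose 5-phosphate to ribose 5-phosphate and xylulose 5-phosphate. *Rpia* lay between 12.4 and 14.5 CPM in control nerves and between 10.3 and 15.4 CPM in *Nae1* cKO nerves (log2 difference −0.09, 95% interval −0.38 to 0.20, edgeR adjusted p = 0.657). *Rpe* lay between 32.0 and 42.3 CPM in control nerves and between 25.8 and 34.6 CPM in *Nae1* cKO nerves (log2 difference −0.23, 95% interval −0.49 to 0.03, edgeR adjusted p = 0.179). For both the groups overlapped. The counts of *Rpe* were fractional in all 8 libraries, and 17.9% of its exonic bases lie in exons of *Kansl1l* on the other strand.

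Outside the pathway, *Me1* showed the largest change of the 9. It (ENSMUSG00000032418.15) lies at chr9:86581371-86695953 on the minus strand and encodes cytosolic malic enzyme, which turns malate into pyruvate and makes NADPH. It was at 22.5, 24.6, 32.9 and 22.01 CPM in control nerves K1, L3, L4 and L9, and at 78.7, 62.2, 75.7 and 71.4 CPM in *Nae1* cKO nerves K2, L1, L5 and L8. The lowest *Nae1* cKO nerve was nearly as far above the highest control nerve as that nerve was above 0. The log2 fold change was 1.50 (SE 0.130, 95% interval 1.21 to 1.78, edgeR adjusted p = 6.72e-06) or 2.82-fold. Its counts were fractional in 7 of 8 libraries.

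*Idh1* (ENSMUSG00000025950.16, chr1:65158616-65186500, minus strand) encodes cytosolic isocitrate dehydrogenase, which makes NADPH from isocitrate. It was at 136, 142, 122 and 132 CPM in control nerves K1, L3, L4 and L9, and at 137, 104, 107 and 102 CPM in *Nae1* cKO nerves K2, L1, L5 and L8. In the *Nae1* cKO group, 3 nerves lay below every control nerve and K2 lay among the controls. With all 8 nerves the log2 difference was −0.24 (SE 0.1003, 95% interval −0.46 to −0.03) and did not pass (edgeR adjusted p = 0.0949). Without K2 it was −0.36 and passed (edgeR adjusted p = 0.0017). With all 8 nerves and the letter of the nerve name as a term it was −0.25 and passed as well (edgeR adjusted p = 0.0299), so the call changed both with that library and with the model. K2 was also the library with the largest share of counts on 7SK, a noncoding RNA, which held 4.70% there and 1.94% to 2.66% in each of the remaining 7. The part of this share in the result was not tested.

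**Figure D2:**
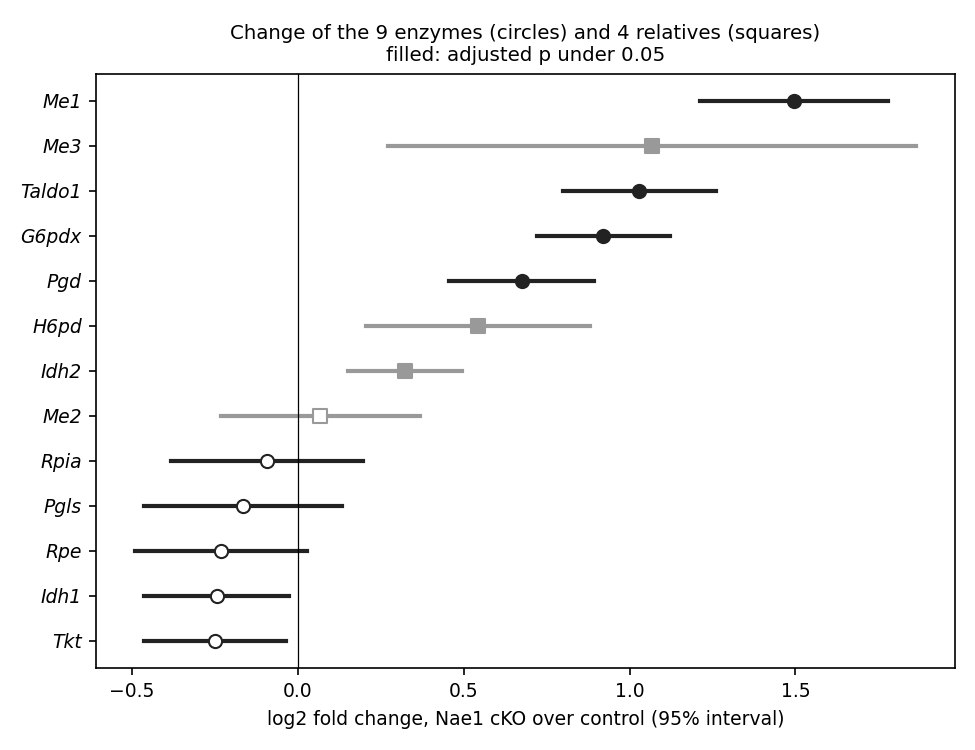
Log2 fold change of *Nae1* cKO over control nerves with its 95% interval (horizontal axis) for the 9 enzymes (circles) and 4 relatives in other compartments (squares), filled where edgeR's adjusted p was under 0.05. *Me1*, *Taldo1*, *G6pdx* and *Pgd* lie between 0.67 and 1.50, while the other 5 enzymes lie between −0.25 and −0.09.

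Relatives of these enzymes in other compartments were measured in the same nerves. *H6pd*, the glucose-6-phosphate dehydrogenase of the endoplasmic reticulum, rose by 0.54 on the log2 scale (edgeR adjusted p = 0.0228). It did not pass without control nerve L4 (adjusted p = 0.0613) or without control nerve L9 (adjusted p = 0.0673). *Me2*, a mitochondrial malic enzyme that makes NADH in the main, differed by 0.07 (95% interval −0.23 to 0.37, edgeR adjusted p = 0.763). *Me3*, the mitochondrial malic enzyme that makes NADPH, was low, at 2.16 ± 0.778 CPM in control and 4.57 ± 2.25 CPM in *Nae1* cKO nerves (SD, n = 4). Its log2 fold change of 1.07 stood at the threshold (edgeR adjusted p = 0.0498) and was lost in 14 of 21 alternative settings, among them the removal of K1, K2, L1, L3, L4 or L9, with adjusted p of 0.0542 to 0.106. *Idh2*, the mitochondrial counterpart of *Idh1*, rose by 0.32 (edgeR adjusted p = 0.00924). The remaining relatives had almost no reads, with 0 to 1 counts per library for *G6pd2* and 0 for *Tktl2* in all libraries, and *Tktl1* had 1 to 6.

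Whether partner enzymes changed unequally was compared as the log2 ratio of their CPM within each nerve, for 8 pairs set by role, with a two-sided exact permutation test. The pairs were chosen with earlier results of these data known, which the p-values do not take into account. The smallest p that 4 nerves against 4 allow is 0.0286, and adjustment over the 8 pairs took the lowest values to 0.0571, so no pair passed after adjustment. The ratio of *Tkt* to *Taldo1* lay between 1.23 and 1.57 on the log2 scale in control nerves and between 0.00 and 0.26 in *Nae1* cKO nerves, a difference of −1.27 (SE 0.0939, exact permutation p = 0.0286). The ratio of *Me1* to *Me2* rose by 1.46 (SE 0.247), that of *Pgd* to *Pgls* by 0.84 (SE 0.213), and that of *Idh1* to *Idh2* fell by 0.58 on the log2 scale (SE 0.0985), each without overlap of the groups and with an exact permutation p = 0.0286. The ratios of *G6pdx* to *Pgd* (difference 0.26, SE 0.093, exact permutation p = 0.0857) and of *G6pdx* to *H6pd* (difference 0.41, SE 0.236, exact permutation p = 0.171) overlapped between the groups. So did those of *Me1* to *Me3* (difference 0.45, SE 0.437) and *Rpia* to *Rpe* (difference 0.12, SE 0.0993), each with an exact permutation p = 0.286.

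**Figure D3:**
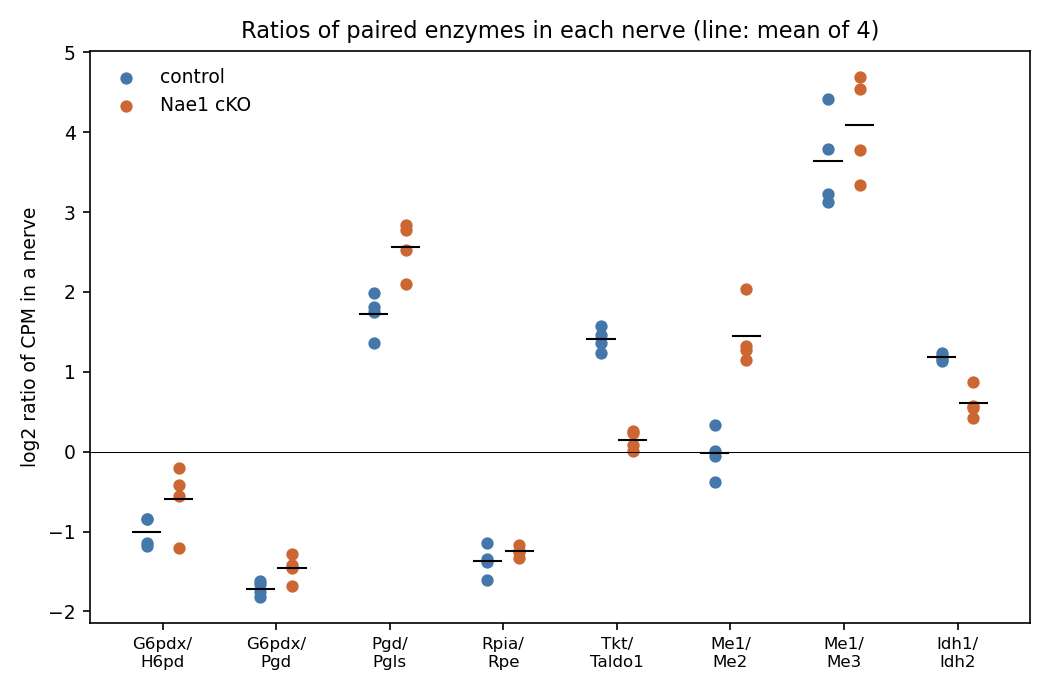
Log2 ratio of the CPM of 2 enzymes in each nerve (vertical axis) for 8 pairs, control nerves in blue and *Nae1* cKO nerves in orange, with the mean of 4 nerves as a black line. The absolute height of a ratio also reflects gene length, so only the shift between the groups is compared, and it is widest for *Me1* over *Me2* (1.46) and *Tkt* over *Taldo1* (−1.27).

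Levels between genes were compared as the deposited TPM, which is scaled to gene length. In control nerves *Tkt* stood first at 126 ± 13.7 TPM, followed by *Taldo1* at 91.6 ± 4.09, *Idh1* at 41.9 ± 3.43, *Pgd* at 23.6 ± 3.56, *Pgls* at 15.2 ± 1.48 and *Rpe* at 10.2 ± 1.87 TPM (SD, n = 4). *G6pdx* at 6.34, *Rpia* at 5.95 and *Me1* at 5.92 TPM came last, and neighbours among these 3 overlapped over the nerves. In *Nae1* cKO nerves *Taldo1* stood first at 205 ± 31.6 TPM and *Tkt* followed at 124 ± 27.1 TPM, without overlap. *Pgd* at 42.5 ± 11.4 and *Idh1* at 38.2 ± 5.8 TPM came next and overlapped, and *Me1* rose from the last place to 17.5 ± 2.65 TPM, where it overlapped with *Pgls* at 15.1 ± 1.79 TPM. *G6pdx* at 14.9 ± 4.23, *Rpe* at 9.46 ± 3.06 and *Rpia* at 5.51 ± 1.80 TPM followed, each overlapping with its neighbour. The TPM of K2 were low for most of the enzymes, with *G6pdx* at 8.85 where L1, L5 and L8 had 15.9 to 18.7, and 7SK took 12.7% of all TPM in K2 against 7.76% to 10.2% elsewhere.

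Among the 4 members that form NADPH, the mix of mRNAs shifted. *Idh1* made up 54.0% ± 3.16 of their summed TPM in control nerves (SD, n = 4) and 34.3% ± 4.08 in *Nae1* cKO nerves. *Pgd* went from 30.2% ± 1.92 to 37.1% ± 3.64, *Me1* from 7.58% ± 1.93 to 15.6% ± 1.18 and *G6pdx* from 8.18% ± 0.624 to 12.96% ± 1.39. The shares of *Idh1*, *Me1* and *G6pdx* did not overlap between the groups, while those of *Pgd* met at 32.4% to 32.5%. The summed TPM was 77.7 ± 7.51 in control nerves and 113 ± 22.8 in *Nae1* cKO nerves (SD, n = 4), and the groups overlapped because K2, at 80.4, lay below the highest control nerve at 83.5. These are amounts of mRNA, not of enzyme or of NADPH.

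**Figure D4:**
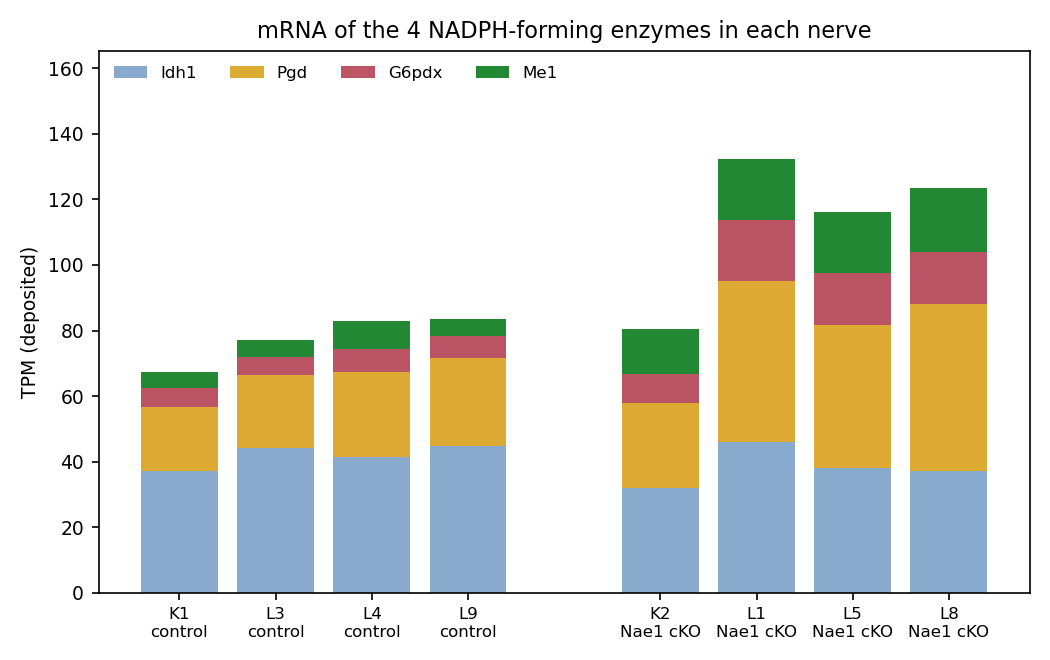
Deposited TPM (vertical axis, starting at 0) of *Idh1*, *Pgd*, *G6pdx* and *Me1*, stacked for each nerve. *Idh1* is the tallest part in every control nerve (37.2 to 44.6 TPM), and the *Pgd* part is taller than it in *Nae1* cKO nerves L1, L5 and L8 (49.1, 43.8 and 51.0 TPM against 45.9, 38.0 and 37.1 TPM) but not in K2 (26.1 against 31.9 TPM).

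A stretch around an annotated start of each of the 4 enzymes that rose is shown for the letters it holds, since these genes moved in the same direction. NRF2, encoded by *Nfe2l2*, is a transcription factor that binds antioxidant response elements and whose degradation is carried out by a neddylated cullin ligase. RefSeq starts on GRCm38.p6 with 250 bases before and 50 after were searched on both strands for 10 patterns, of which 9 were searched together and the AP-1 pattern was added after a match had been seen. The pattern shown was also picked after the matches of those 9 were known. It is the core of the antioxidant response element, TGACNNNGC, which 12.4% of all 32851 windows held. It was found in 3 of 12 windows of the 9 enzymes, 1 each of *Me1*, *G6pdx* and *Pgd*. Each stretch runs from 120 bases before the start to 20 after it, 5′ to 3′ on the strand of the gene, with the match in capitals. For *Me1* and *Pgd*, which have 2 starts each, the start whose window held the match is shown. *Me1* is at chr9:86695895-86696034 (minus strand), *G6pdx* at chrX:74428861-74429000 (minus strand), *Pgd* at chr4:149166063-149166202 (minus strand) and *Taldo1*, which has no match, at chr7:141392040-141392179 (plus strand).
Me1: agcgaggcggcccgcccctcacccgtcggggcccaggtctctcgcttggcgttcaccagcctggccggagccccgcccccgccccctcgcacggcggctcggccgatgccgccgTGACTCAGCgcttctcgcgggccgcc
G6pdx: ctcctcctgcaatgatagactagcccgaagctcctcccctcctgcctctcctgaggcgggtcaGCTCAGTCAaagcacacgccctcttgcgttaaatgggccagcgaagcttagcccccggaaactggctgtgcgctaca
Pgd: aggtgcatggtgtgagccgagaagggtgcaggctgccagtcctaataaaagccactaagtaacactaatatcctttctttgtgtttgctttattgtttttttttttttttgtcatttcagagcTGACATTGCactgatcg
Taldo1: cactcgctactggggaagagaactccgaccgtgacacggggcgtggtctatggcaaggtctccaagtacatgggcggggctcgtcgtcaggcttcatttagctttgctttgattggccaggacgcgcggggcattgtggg

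In *Me1* the match spans the start, from 6 bases before it to the third transcribed base, and its letters also hold the AP-1 pattern TGACTCA, which 5.2% of windows held. In *G6pdx* it lies 57 to 49 bases before the start and reads TGACTGAGC on the opposite strand. The RefSeq start used for *G6pdx* lies 314 bases inside the gene's 5′ end in GENCODE, so this match falls within the annotated gene. In *Pgd* it belongs to the downstream one of 2 annotated starts, 623 bases from the other, and lies inside an exon of 3 annotated transcripts, from 149166007 to 149166082. That start is the first base of this exon on the strand of the gene and lies 689 bases from the 5′ end of *Pgd* in GENCODE. The window of the other start, 66 bases from that 5′ end, held no match. The match shown for *Pgd* covers bases 4 to 12 of this exon, so it lies after the start and not before it. The letters just before the exon read tttcag. Whether the 120 bases before the exon act as a promoter or are part of an intron was not tested. The windows of *Taldo1*, *Tkt*, *Idh1*, *Rpia*, *Rpe* and *Pgls* did not hold the core. The other patterns were TGACTCAGC (0.454% of all windows, found in *Me1*), TGANNNNGC (41.3%, found in 6 of the 9 enzymes), CCAAT (37.4%, in 5), GGGCGG (35.7%, in all 9), and TCACNCCAC (1.24%), CACGTG (7.15%), TGACGTCA (1.79%) and the full sterol regulatory element (0.0913%), which were in none. A match describes the letters in these windows and says nothing of binding.

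Branches of the pathway, together with relatives of its enzymes such as *H6pd*, are described from a list of 11 further genes, of which 8 were tested. In *Nae1* cKO nerves 3 rose (*H6pd*, *Prps2* and *Pgm2*), none fell and 5 did not pass, with a median log2 fold change of 0.37. *Prps2*, which makes phosphoribosyl pyrophosphate from ribose 5-phosphate for nucleotide synthesis, rose by 0.39 (edgeR adjusted p = 0.00906). The gene under the symbol *Pgm2* (ENSMUSG00000025791.18) rose by 0.51 (edgeR adjusted p = 0.0188). It was listed by symbol, and whether this record encodes a phosphopentomutase, and so belongs to these branches, was not checked. *Pgm2* did not pass without control nerve L3 (adjusted p = 0.0537).

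At the branch point that shares glucose 6-phosphate between glycolysis and the pathway, 4 of 9 genes rose and 1 fell. *Gpi1*, which turns glucose 6-phosphate into fructose 6-phosphate, went from 104 ± 12.6 to 209 ± 25.7 CPM (SD, n = 4; log2 fold change 1.01, edgeR adjusted p = 3.18e-05). The platelet-type phosphofructokinase *Pfkp* rose by 0.82 (edgeR adjusted p = 1.004e-04) and the muscle-type *Pfkm* fell by 0.66 on the log2 scale (edgeR adjusted p = 0.00157). The summed CPM of 10 skeletal muscle markers ran from 124 to 2055 in control and from 60.2 to 169 in *Nae1* cKO nerves. It was highest in control nerves L4 (2055) and K1 (1246). The fall of *Pfkm* passed in 20 of 21 alternatives, among them the one without K1 and L4 together. It did not pass on log2(TPM + 1) (limma adjusted p = 0.257). The part of muscle RNA in the fall of *Pfkm* was not tested. The glucose transporter *Slc2a3* rose by 0.90 from 2.07 CPM (edgeR adjusted p = 0.0247) but did not pass without K2, L1, L4 or L9 (adjusted p 0.0549 to 0.0691). The other gene that rose, *Fbp1*, had 3 to 21 counts per library and overlapping groups (edgeR adjusted p = 0.0487). The number of genes of this list that rose was 2 without K2, L1, L4 or L9. The hexokinases *Hk1* and *Hk2*, named after their values were seen, differed by 0.08 and 0.12 and did not pass (edgeR adjusted p = 0.726 and 0.706).

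A further list, named citrate and malate supply, holds genes that make, carry or use citrate, isocitrate and malate, the metabolites around *Idh1* and *Me1*. Some of them, such as *Acly*, use citrate and do not supply it. Of 13, 5 fell, none rose and 8 did not pass, with a median of −0.10. *Acly*, ATP citrate lyase, went from 442 ± 10.9 to 222 ± 12.98 CPM (SD, n = 4; log2 fold change −0.99, edgeR adjusted p = 1.65e-06). *Pcx*, pyruvate carboxylase, fell by 1.27, the citrate carrier *Slc25a1* by 1.20 and the dicarboxylate carrier *Slc25a10* by 0.83 on the log2 scale (edgeR adjusted p = 1.37e-05, 1.63e-05 and 8.99e-05). The fifth, the cytosolic aconitase *Aco1*, fell by 0.24 (edgeR adjusted p = 0.0394). The malate dehydrogenases *Mdh1* and *Mdh2*, named after their values were seen, differed by 0.04 and −0.10 without passing (edgeR adjusted p = 0.746 and 0.618).

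A list named other NADPH sources was mixed, with 4 of 12 higher, 3 lower and 5 not passing, and a median of 0.20. It also holds genes that are not sources in the strict sense, the NAD kinases, which make NADP, and *Me2*. Beside *Me3* and *Idh2*, glutamate dehydrogenase *Glud1* rose by 0.42 (edgeR adjusted p = 0.00131) and the mitochondrial NAD kinase *Nadk2* by 0.75 (edgeR adjusted p = 0.00489). The cytosolic NAD kinase *Nadk*, which makes cytosolic NADP, fell from 138 ± 9.69 to 91.1 ± 8.11 CPM (SD, n = 4; log2 fold change −0.60, edgeR adjusted p = 2.6e-04). The folate enzymes *Mthfd2l* and *Mthfd1* fell by 0.65 and 0.44 on the log2 scale (edgeR adjusted p = 4.16e-04 and 0.00289).

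Genes that spend NADPH were listed by use, and these lists too were chosen with earlier results of these data known. Of 11 genes for redox and detoxification, 6 rose, none fell and 5 did not pass, with a median log2 fold change of 1.72. Glutathione reductase *Gsr* went from 25.1 ± 2.21 to 105 ± 8.87 CPM and thioredoxin reductase *Txnrd1* from 45.4 ± 4.84 to 305 ± 41.4 CPM (SD, n = 4), or by 2.07 and 2.75 on the log2 scale (edgeR adjusted p = 6.49e-08 and 4.24e-08). The carbonyl reductase *Cbr3* rose by 3.58 and the prostaglandin reductase *Ptgr1* by 1.72 (edgeR adjusted p = 2.54e-07 and 1.1e-06). The mitochondrial *Txnrd2* differed by −0.37 without passing (edgeR adjusted p = 0.163), and its value is named after it was seen. All 10 genes for lipid synthesis fell, with a median of −1.39. The NADPH-using steps of cholesterol synthesis *Cyp51* and *Sqle* fell by 1.56 and 1.29 on the log2 scale (edgeR adjusted p = 2.11e-07 and 4.14e-07), and fatty acid synthase *Fasn* went from 525 ± 60.9 to 189 ± 12.5 CPM (SD, n = 4). All these lists were compared on the same 8 nerves.

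**Figure D5:**
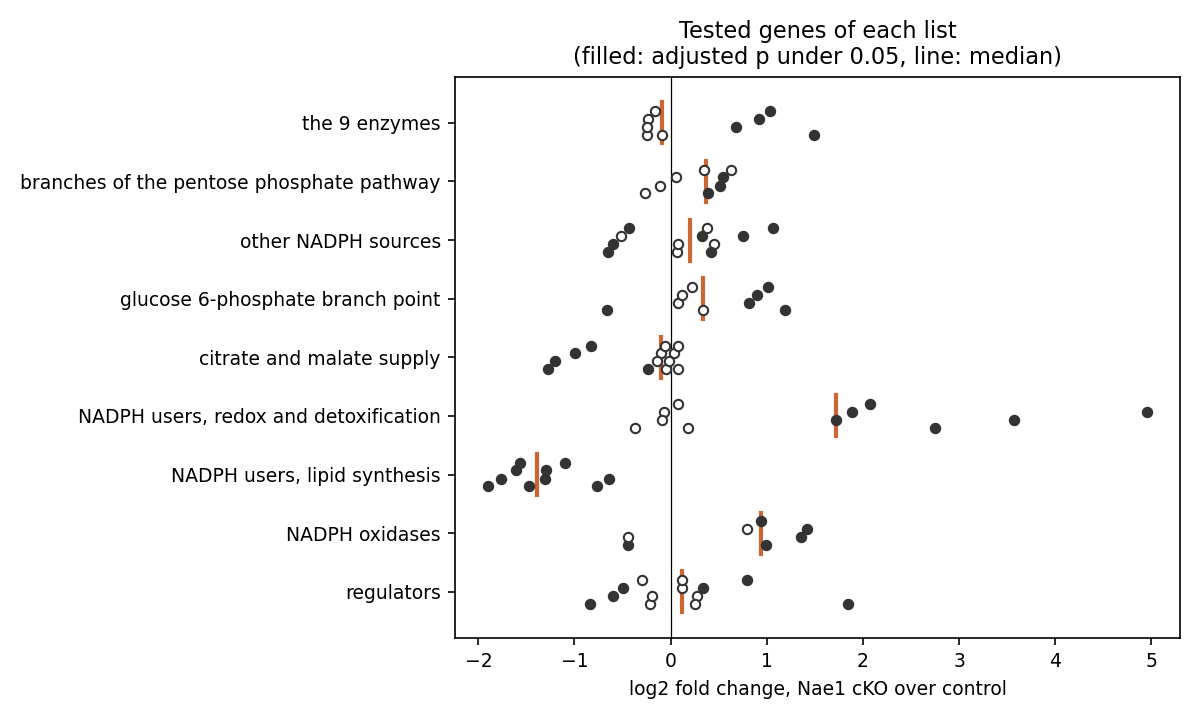
Log2 fold change of *Nae1* cKO over control nerves (horizontal axis) for each tested gene of the 9 enzymes and of 8 lists around them (rows), filled where edgeR's adjusted p was under 0.05, with the median of each list as an orange line. The medians run from −1.39 for lipid synthesis to 1.72 for redox and detoxification, and that of the 9 enzymes is −0.09, with 4 filled points to the right of 0.

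Of the 9 NADPH oxidase genes, which use NADPH to make superoxide, 7 were tested, of which 4 rose, 1 fell and 2 did not pass. *Nox4* rose by 1.41, the cytosolic subunit *Ncf1* by 1.35, and *Cyba* and *Cybb*, which form the membrane part of the phagocyte oxidase, by 0.996 and 0.94 (edgeR adjusted p = 0.00295, 6.57e-04, 0.00111 and 3.21e-04). Of 12 macrophage markers 8 rose and none fell, and their summed CPM ran from 252 to 288 in control and from 434 to 567 in *Nae1* cKO nerves. Macrophages also use the oxidative branch, and the part of these cells in the rises of *G6pdx*, *Pgd*, *Taldo1* and *Me1* was not tested. Summed markers of the Schwann cell lineage ran from 2918 to 3162 CPM in control and from 2412 to 2768 CPM in *Nae1* cKO nerves, and 3 of its 8 markers fell and 1 rose. Of 8 fibroblast markers 4 rose and none fell, and their summed CPM, which overlapped, ran from 15760 to 19876 in control and from 19517 to 21968 in *Nae1* cKO nerves. The part of fibroblasts in the rises of the 4 enzymes was not tested either.

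Among 13 genes that regulate these pathways, 3 rose, 3 fell and 7 did not pass, with a median of 0.11. The small MAF genes *Maff* and *Mafg*, partners of NRF2 on DNA, rose by 1.84 and 0.79 (edgeR adjusted p = 4.77e-05 and 6.56e-04), and *Bach1*, a repressor at the same elements, by 0.34 (edgeR adjusted p = 0.00334). *Nfe2l2* itself fell by 0.60 on the log2 scale (edgeR adjusted p = 0.00337), from 83.6 ± 8.62 to 55.0 ± 9.19 CPM (SD, n = 4). *Srebf2*, the regulator of sterol synthesis, fell by 0.84 and *Hif1a* by 0.49 on the log2 scale (edgeR adjusted p = 4.99e-04 and 0.00385). *Keap1* and *Cul3*, parts of the ligase that degrades NRF2, differed by 0.11 and −0.21 without passing (edgeR adjusted p = 0.445 and 0.0556), and are named after their values were seen. Of the list, 6 fell without K2 and 5 without control nerve L3.

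The genes most like the 3 members with the smallest p were found among 9607 genes with a mean of at least 10 CPM, by the root mean square difference over the 8 nerves in log2 CPM centred on the control mean. *Taldo1* was closest to *Ftl1*, which encodes the ferritin light chain and has close copies that may share its reads, to *BC067074* and to *Prdx6*, a peroxiredoxin, at 0.0809 to 0.0941. *G6pdx* was closest to *Afap1l1*, to *Csf1r*, a receptor of macrophages, and to *Spata13*, at 0.0788 to 0.0922. *Me1* was closest to *Kitl*, which encodes the ligand of the receptor KIT, to *Zdhhc18* and to *Angptl2*, at 0.161 to 0.172, so its nearest genes were less close than those of the other 2. The measure takes in the size of the change between the groups, and the members themselves ranked lower on it, with *G6pdx* at place 101 and *Me1* at place 714 among the genes ordered by likeness to *Taldo1*.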

How the data were processed

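Total RNA of 8 sciatic nerves (4 control, 4 *Nae1* cKO, postnatal day 7) had been sequenced from stranded libraries depleted of ribosomal RNA. The authors deposited RSEM's gene table for each nerve, with expected counts (estimated fragments per gene, not scaled), TPM and FPKM, both scaled by the authors for length and library size. According to the processing notes of the submitters, the tools were STAR and RSEM with FastQC 0.11.5, on GRCm38. The methods of the study instead name TopHat and Cuffdiff on mm10, which need aligned reads and were not repeated. The strand setting and the annotation release were not given in the sources used here. Without version, 52489 of 53090 identifiers matched GENCODE vM21, from which coordinates were taken.

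Expected counts were rounded, filtered with filterByExpr, scaled by TMM and tested in edgeR 4.0.16 (R 4.3.3; quasi-likelihood, robust, no covariates, Benjamini-Hochberg adjustment over 17090 genes). Nerves held 12962798 to 14766770 expected counts. The biological coefficient of variation that all genes shared was 0.158. Intervals are 95% from the fit, and where the labels do not tie nerves to separate animals, p-values measure the spread between these samples. The test was checked on simulated counts with the same dispersion for all genes and few changed genes, equally up and down. In the data 26.4% of tested genes passed, so the check does not cover such a case. For *Nadk2* and *Txnrd2*, each with 2 records, the one with the larger mean was used. Promoters were RefSeq's on GRCm38.p6, with a window for all 9 members.

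The members, lists and pairs were chosen with earlier results of these data known. Genes named were the 9 members, *Nae1*, the paralogs, the up to 4 genes per list with the smallest adjusted p among those called, and the genes most like 3 members. Others were named after their values were seen, among them the remaining called genes of lists with few calls, *Ikbkg*, *Fam129c* and *Kansl1l*. Some genes that the rule gives are not reported here. Alternatives were DESeq2 1.42.0, limma 3.58.1 (voom, and log2 of TPM or FPKM with a pseudocount of 1, or 0.1 for FPKM), other scalings and filters, the letter of the nerve names, and nerves left out.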

Additional observations from a re-analysis of the deposited data

Results flagged for a closer look

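A nerve far from the other 3 of its group was looked for in 88 groups of 4 (44 genes, 2 genotypes) with Dixon's test, and 7 were found. Chance gives about 1 in 20 groups. Among the members, *Rpe* was at 42.3 CPM in control nerve L9 against 32.0 to 33.1 CPM in the other control nerves. *Tkt* was at 289 CPM in *Nae1* cKO nerve L1 against 341 to 346 CPM in the others of its group. In *Nae1* cKO nerve K2, *Idh1* reached 137 CPM, and the others of the group 102 to 107 CPM.

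Among the other genes named, *Glud1* was at 83.9 CPM in control nerve L9 against 89.7 to 90.8 CPM, and *Gsr* was at 28.4 CPM in the same nerve against 23.8 to 24.2 CPM. In *Nae1* cKO nerve K2, *Cyba* reached 20.7 CPM, and the others of the group 15.3 to 15.9 CPM. *Nox4* was at 9.99 CPM in control nerve L3 against 4.09 to 4.13 CPM. Every *Nae1* cKO nerve stayed above this value for *Nox4*, the lowest being at 12.8 CPM.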

How the results depend on the processing

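*G6pdx*, *Pgd*, *Taldo1* and *Me1* rose and passed in all 21 alternatives, with log2 fold changes of 0.89 to 1.20, 0.58 to 0.84, 0.95 to 1.18 and 1.39 to 1.65, so the number of enzymes called higher was 4 throughout. *Tkt* and *Rpe* did not pass in any. *Idh1* passed with the letter of the nerve names as a term (−0.25, edgeR adjusted p = 0.0299), in the L nerves alone (−0.35, adjusted p = 0.0053) and without K2 (−0.36, adjusted p = 0.0017), and the number of enzymes called lower was then 1. With each nerve left out in turn it was 0 to 1, and *Idh1* was at −0.36 to −0.20. Uncalled values changed sign for *Pgls* on log2(FPKM + 1) and log2(FPKM + 0.1) (0.0185 and 0.0192) and for *Rpia* with library totals (0.0715) and in the L nerves alone (0.0224). On log2(TPM + 1) *Nae1* was at −0.44 and did not pass (limma adjusted p = 0.266), and 15 genes of the 8 lists were called higher and 11 lower, against 24 and 23. On TPM the ratio of *G6pdx* to *Pgd* differed by 0.37 (exact permutation p = 0.0286, unadjusted) and that of *Rpia* to *Rpe* by −0.014 (exact permutation p = 0.943). Without K1 and L4 together, control nerves with much muscle RNA, 1 gene of the list of branches and 1 of the list of other NADPH sources were called higher, against 3 and 4. The cause of these changes was not tested.

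The share of calls that were higher was 53.5%, but 75.5% with library totals, 75.4% on TPM and 76.4% on FPKM with either pseudocount, where the median of all genes moved to 0.16, 0.10, and 0.13 or 0.16. No paired analysis was possible because the groups share no replicate numbers. Depth limits genes of few counts, such as *Fbp1* and *Maff*.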
